A study of Drosophila melanogaster with 2 samples.

Results

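Peaks of the transcription factor pebbled (peb) that lie a short way off the start of a single gene are described here. The members are the peaks of the larger of the thresholded lists made from both replicates, called the optimal list, whose summit was more than 200 and at most 1000 bp from the nearest transcription start site (TSS) of a protein-coding gene, upstream or downstream. Summits within 1000 bp of both TSSs of a divergent gene pair were left out, which removed 70 peaks whose nearest TSS was more than 200 bp away. The rule used position only, and it found 579 members among the 2841 peaks on the 7 main chromosomes (20.4%). They were set beside 405 core peaks, which are the non-divergent peaks within 200 bp of a TSS, and beside 717 distal peaks, whose summits were more than 1000 and at most 5000 bp from the nearest TSS.

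The peaks come from ChIP-seq on whole Drosophila melanogaster embryos, 0 to 24 h old, that carried a transgene for peb fused to eGFP, and the precipitating antibody recognised GFP. All samples formed 1 group, namely 2 biological replicates without a contrasting condition, so each value pools all cell types and all stages of embryogenesis, and it describes the tagged protein. The signal value of a peak is the authors' own, it has no unit, and it ranks peaks within 1 list only. Read counts are not part of the lists, which leaves the depth of each replicate unknown here, and each interval given with a share is an exact 95% interval that covers the counting of peaks only.

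Pebbled, also called hindsight, is a nuclear zinc finger protein and the fly homologue of mammalian RREB1. In the embryo it is known from the amnioserosa, the midgut, the tracheae and the peripheral nervous system, where it acts in germ band retraction, dorsal closure and tracheal development, and in the ovary it acts downstream of Notch. The sequence next to a TSS holds the core promoter, where elements such as the TATA box, the initiator, the DNA replication-related element (DRE) and Motif 1 place the polymerase. The proximal sequence further out and the first intron hold binding sites for sequence-specific factors that set when and where a gene is used, and genes with several promoters often carry such sequence between one start and the next.

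The sequences shown first are the stretches that hold the 6-mer ACAGTG, which set members apart from their flanks with the lowest p of all 6-mers that contain a G or C. They are taken from introns and intergenic sequence at named members, so that the bases around the match can be compared, and are given 5′ to 3′ on the dm6 assembly with the 6-mer in capitals. The site at Rtnl1, a gene for a reticulon of the endoplasmic reticulum membrane, was on the plus strand at chr2L:4997563-4997592. The site at Fhos, a formin gene, was on the minus strand at chr3L:8766239-8766268, and the site at ph-d, a Polycomb group gene, was on the plus strand at chrX:2123951-2123980. The last, at wit, the gene of a type II receptor for BMP ligands, was on the plus strand at chr3L:4071178-4071207.
Rtnl1: atcaagcagtgcACAGTGggcacgccagca
Fhos: aaacaccggcgcACAGTGtgacagattcaa
ph-d: tgatatgttcccACAGTGgcactcgatcta
wit: ttaacatttctaACAGTGcatgtgtactgt

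None of these sites lay under the summit itself. The site at Rtnl1 was 65 bp from it, the one at Fhos 73 bp, the one at ph-d 80 bp and the one at wit 53 bp. The ph-d stretch was within 100 bp of the summit but outside the called peak, which ran from 2124020 to 2124110 on X. The member with the highest signal, at ph-p, lacked the 6-mer, and its summit window of 201 bp on the plus strand at chrX:2137251-2137451 is given for the AT-rich sequence at its centre, with a match to the 6-mer AGGGTA (read as TACCCT on this strand) in capitals.
ph-p: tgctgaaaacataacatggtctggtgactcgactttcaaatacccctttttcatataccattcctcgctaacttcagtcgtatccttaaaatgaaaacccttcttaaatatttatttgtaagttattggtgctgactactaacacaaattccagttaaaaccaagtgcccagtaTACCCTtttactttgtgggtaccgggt

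The member with the highest signal was in an intron of ph-p (FBgn0004861), a subunit gene of Polycomb repressive complex 1, with its summit 496 bp upstream of a TSS. Its signal was 869 in the optimal list, with 398 in replicate 1 and 476 in replicate 2. A second member of ph-p, 491 bp downstream of a TSS at X, 2137730 to 2138027, in the 5′ UTR, had a signal of 446, with 206 in replicate 1 and 246 in replicate 2. The summits of this pair were 529 bp apart.

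The neighbouring tandem copy ph-d had 3 members, with signals of 110, 61.4 and 5.57 at 760, 401 and 962 bp upstream. Because ph-p and ph-d are copies of each other, the summit windows were searched for repeats. None of the 5 stretches of 40 bases in each summit window of the ph-p pair and of the strongest ph-d member occurred again on the main chromosomes, on either strand. The same was true of the windows of the other members named for their signal, their downstream position or their gene list.

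Members at HMG-box genes came next. HmgZ, which encodes a chromosomal HMG protein, had a signal of 665 (replicate 1, 316; replicate 2, 347) at 2R, 21703249 to 21703599, in an intron 565 bp upstream of a TSS and within both HmgD and HmgZ in the annotation. Sox14, a gene for an HMG-box transcription factor, had 512 (replicate 1, 267; replicate 2, 242) in intergenic sequence at 2R, 23978434 to 23978673, 235 bp upstream.

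Further strong members lay at px, a gene of wing vein patterning, with 501 (replicate 1, 238; replicate 2, 253; 209 bp upstream), and at Rtnl1 with 450 (replicate 1, 210; replicate 2, 235; 262 bp upstream). The gene chif, which encodes the fly Dbf4-like protein, had 393 at 926 bp upstream, with 170 in replicate 1 and 219 in replicate 2. LPCAT, a lysophospholipid acyltransferase gene, had 380 in an intron 682 bp downstream, and Lpin, the lipin gene, had 291 in an intron 245 bp upstream. The RNA-binding protein gene mub had 340 in an intron 921 bp downstream, and brat, a translational repressor gene of neural stem cell lineages, had 324 in an intron 734 bp upstream.

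The set of 20 with the highest signals among members found in both replicates was completed by CG1888 (489), CG31145 (411), CG3009 (400), CG4496 (338), CG10479 (330), Fhos (320), E23, an ABC transporter gene (309), cu, the curled gene (298), and RasGAP1, a gene for a Ras GTPase-activating protein (298). Across these 20 the values ran from 116 to 398 in replicate 1 and from 161 to 476 in replicate 2. Of the 20, 17 were upstream of their nearest TSS, and 4 had a nearest gene that also had a peak within 200 bp of a start. Among the 5 strongest downstream members, CG9663 (377, 906 bp downstream) stood apart, since it overlapped a thresholded peak of replicate 1, with 191, and none of replicate 2. A second member of CG9663, with a signal of 143 and its summit 206 bp away, overlapped a thresholded peak of replicate 2 (89.5) and none of replicate 1, so both replicates had a peak in this intron.

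At the limits of the rule, members next to 200 bp were shep at 203 bp (signal 109) and CG5096 at 203 bp (67.7). The core peaks just outside were brwl at 200 bp (121), svr at 200 bp (55.4) and CngA at 198 bp (77.8). Near 1000 bp the last members were Fili at 996 bp (265), CG14207 at 993 bp (66) and CBP at 991 bp (123), and the first distal peaks were piwi at 1004 bp (62.4), sty at 1006 bp (64.8) and CG11050 at 1016 bp (938). CG11050, the second strongest peak of the whole list, thus fell just outside the rule.

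Members were not spread evenly on the 2 sides of the start. Of the 579, 409 were upstream (70.6%, 66.7 to 74.3%) and 170 downstream, although upstream sequence was 43.8% of all bases the rule could have chosen. Per Mb of such sequence there were 52.2 summits upstream and 16.9 downstream. Core peaks were upstream in 325 of 405 cases (80.2%, 76 to 84%), where upstream sequence was 49.1% of the bases open to them. They had 132 summits per Mb upstream and 31.5 downstream. The upstream shares of members and core peaks differed (adjusted p = 0.00311, Fisher's exact test, two-sided, over 5 class comparisons). The test took no account of the bases open to each class. Peaks within a list are not independent replicates, and this and the other Fisher p-values describe these lists. The direction of that difference depended on the outer limit: members within 500 bp were upstream in 87.8%, more often than the 80.2% of core peaks (Fisher's exact test, adjusted p = 0.013). When only the 5′-most TSS of each gene counted, 56.3% of members and 81.8% of core peaks were upstream.

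Upstream, the density of summits fell with distance, and downstream it dipped just past the start. The core peaks reached 188 summits per Mb between 100 and 200 bp upstream and 80.4 in the first 100 bp. Members began at 122 per Mb between 200 and 300 bp upstream, then gave 68.1, 51.8, 40.9, 35.6, 37.2, 14.9 and 25.3 in the next steps of 100 bp. Downstream, core peaks gave 39.2 and 23.3 per Mb in the first and second 100 bp, and members were sparsest just beyond, with 7.35 between 200 and 300 bp and 8.2 between 300 and 400 bp. From 500 bp on, the downstream density lay between 12.3 and 28.6 per Mb, and the upstream density beyond 700 bp lay between 14.9 and 37.2 per Mb. The 2 sides therefore differed most within 500 bp of the start.

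**Figure D1:**
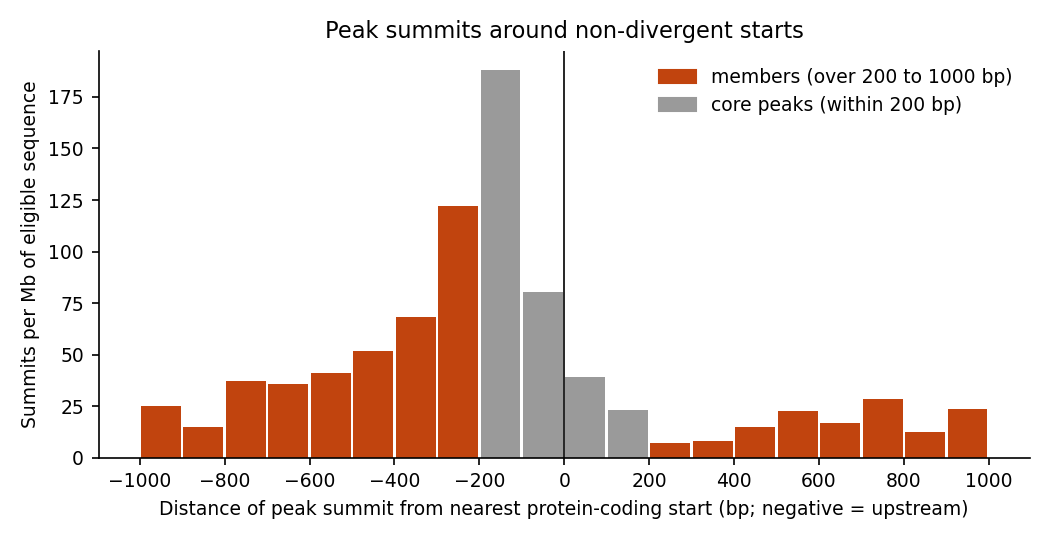
Number of peak summits per Mb of eligible sequence (bases whose nearest start is at that distance, divergent pairs left out) in steps of 100 bp from the nearest protein-coding start, with members in orange and core peaks in grey. Members fell away from 122 per Mb at 200 to 300 bp upstream, and were sparsest, at 7.35 per Mb, at 200 to 300 bp downstream.

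Upstream members were 391 bp from the TSS at the median, with a median signal of 80.9, and 48.7% overlapped a thresholded peak of both replicates. Downstream members were 698 bp away at the median, with a median signal of 74.3, and 38.2% overlapped both. These differences between the sides were not tested.

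Most members lay in introns. The summit was intronic in 354 of 579 (61.1%), 324 of them in the gene of the nearest TSS itself and 30 in another gene, and intergenic in 174 (30.1%). Another 30 were in 5′ UTRs, 9 in 3′ UTRs, 6 in coding exons and 6 in non-coding genes. Downstream members were intronic in 84.7%, against 35.7% of the downstream bases open to the rule, and were in coding exons in 1.76%, against 47.6% of those bases. Upstream members were intronic in 51.3%, against 30.2% of the upstream bases, in coding exons in 0.733%, against 13.8%, and intergenic in 42.1%, close to the 41.3% of bases. Coding sequence was thus the class with the largest shortfall on both sides.

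Many members sat between the starts of 1 gene. The nearest TSS was the 5′-most of its gene for 304 members (52.5%, 48.3 to 56.6%), and 183 of the 409 upstream members were in introns of the gene whose later TSS they preceded. With divergent pairs left out by the rule, which lowers this count, 24 members (4.15%) were within 1000 bp of TSSs of 2 or more genes. A start of a non-coding gene lay within 200 bp of 8 members (1.38%), against 62 of all 2841 peaks (2.18%). The members named 502 genes, 3.6% of the 13945 protein-coding genes, and 67 of these had 2 or more members.

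The genes with 3 or more members were 9, chosen for naming after their values were seen. The forkhead gene CHES-1-like had 4, with signals of 131, 85.6, 70.1 and 11.6. Rtnl1 had 3 separate ones that lay 262, 226 and 208 bp upstream of 3 different starts, with signals of 450, 120 and 234. The others were CAP, CG10543, ckn, ph-d, pico, shep and spri. Several of these counts included a very weak peak beside a stronger one, such as 6.68 beside 139 at pico and 5.57 beside 110 at ph-d.

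The weakest members were nearly all such neighbours. Of the 23 members with a signal under 20, 22 overlapped another peak of the list and had its summit within 250 bp, while 44 of the 556 members with a signal of 20 or more had another summit that close. The gene of the fibroblast growth factor ligand bnl is an example, with 13.7 at 281 bp upstream and the next summit 199 bp away. Of all members, 64 (11.1%) overlapped another peak. With overlapping peaks counted once, in a setting chosen after seeing the data, 550 members were left.

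Some members came with a peak closer to a start of the same gene. The nearest gene of 69 members (11.9%, 9.39 to 14.8%) also had a peak of any kind within 200 bp of one of its starts, divergent pairs included. That share was 7.01% with 5′-most starts, 5.97% in the list of replicate 2 alone and 6.91% in that of replicate 1 alone. These 69 had a median signal of 63.9, and the other 510 had 80.6. Of the 69, 30 were among the 144 members with the lowest signals. The share of 11.9% became 9.27% when overlapping peaks were counted once. By gene, 61 had both, which is 12.2% of the 502 genes with a member, against a background of 7.88% of all protein-coding genes with a peak within 200 bp of a start, and 5.55% of those 1099 genes. With core peaks alone, 386 genes were nearest to one (2.77% of protein-coding genes), and 51 genes had both a member and a core peak, 10.2% of the genes with a member and 13.2% of those with a core peak. None of these overlaps was tested.

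By chromosome, members were 24.2% of the 550 peaks on X (133), between 17.1% and 20.9% of those on the 4 large autosomal arms, and 2 of the 7 on chromosome 4. The median signal of members was highest on 2L, at 89.9, followed by X with 84.1, and the other large arms lay between 71.7 and 77.4. These shares were not tested.

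Of the 579 members, 264 overlapped a thresholded peak of both replicates by 1 bp or more (45.6%, 41.5 to 49.8%), against a background of 40.8% over all peaks. Replicate 1 alone was overlapped by 32 members (5.53%), replicate 2 alone by 167 (28.8%), and 116 (20%) overlapped neither. Over all peaks these shares were 7.18, 28.1 and 23.9%. In the long ranked lists that precede the threshold, 565 members (97.6%) had an entry in both replicates, against 98.2% of all peaks. The share in both replicates was higher than among distal peaks, where it was 268 of 717 (37.4%, 33.8 to 41%; Fisher's exact test, adjusted p = 0.00784). It did not differ by that test from core peaks, with 172 of 405 (42.5%, 37.6 to 47.4%; Fisher's exact test, adjusted p = 0.361). The difference from distal peaks was no longer past the threshold when only the 5′-most TSS of each gene counted (Fisher's exact test, adjusted p = 0.0856). Since the optimal list was called on both replicates together, its signal and this overlap share their reads.

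Overlap went with signal. The 145 members with the highest signals overlapped both replicates in 96.6%, the next 145 in 64.8%, the following 145 in 12.4% and the lowest 144 in 8.33%. The median signal was 125 for members in both replicates, 67.3 for those in replicate 1 alone, 68.2 for those in replicate 2 alone and 51.6 for those in neither. Among the 264 in both, the values in the list of replicate 1 had a median of 57 (15.8 to 398), and those in the list of replicate 2 a median of 70 (5.68 to 476). The values had a Spearman rho of 0.80 over these 264 peaks, which share 1 list and are not independent, and the summits were 20.5 bp apart at the median.

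**Figure D2:**
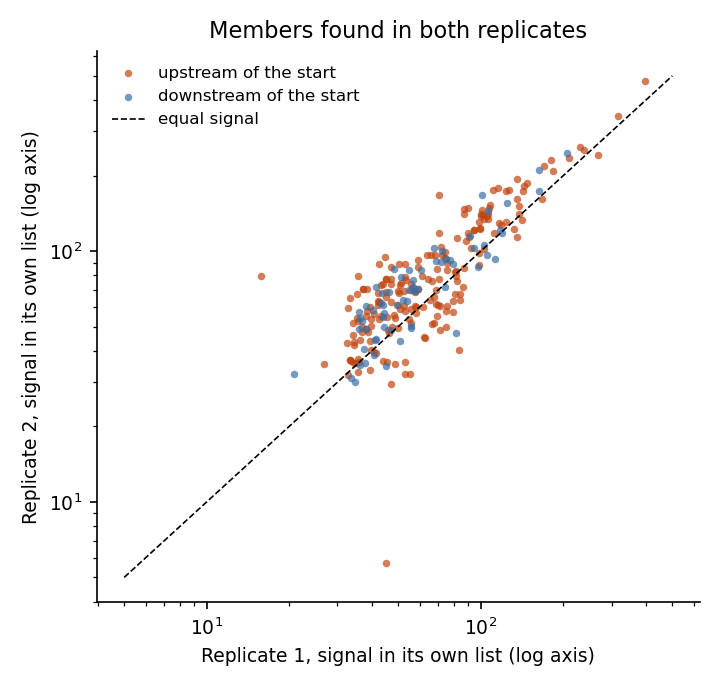
Signal of the 264 members that overlapped a thresholded peak of both replicates, in replicate 1 (x axis) and replicate 2 (y axis), each in its own list on a log axis, with upstream members in orange and downstream members in blue; the dashed line marks equal values. The replicate 2 value was higher in 199 of 264, although scales may differ between lists.

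The signal of members ran from 2.09 to 869, with a median of 78.8 and quartiles of 57.4 and 122, against medians of 73.1 in core, 71.7 in distal and 73.7 in all peaks. There were 18 members among the 100 strongest peaks of the list and 110 among the 500 strongest. The signal exceeded the list median in 315 members (54.4%, 50.2 to 58.5%), against 344 of 717 distal peaks (48%, 44.3 to 51.7%; Fisher's exact test, adjusted p = 0.0368) and 201 of 405 core peaks (49.6%, 44.7 to 54.6%; adjusted p = 0.192). The difference from distal peaks did not pass the threshold by Fisher's exact test with peaks of score 1000 only (adjusted p = 0.0532), with 5′-most starts (0.143), or in the list of replicate 2 alone (0.156) or replicate 1 alone (0.177). Members within 500 bp of a start exceeded the median in 58.1%, against 49.6% of core peaks (Fisher's exact test, adjusted p = 0.0274).

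The DRE and Motif 1, elements known from core promoters of broadly expressed genes, were rarer in members than in core peaks. Windows of 100 bp either side of the summit were searched on both strands for 18 patterns. The DRE, TATCGATA, was in 1 member (0.173%), 19 core peaks (4.69%) and 1 distal peak (0.139%). Motif 1, GGTCACAC, was in 1 member (0.173%), 16 core peaks (3.95%) and 3 distal peaks (0.418%). The CGATA pattern, bound by the insulator protein BEAF and contained in the DRE, was in 117 members (20.2%), 140 core peaks (34.6%) and 144 distal peaks (20.1%). These 3 patterns differed between members and core peaks (Fisher's exact test, adjusted p = 1.25e-05 for the DRE and for CGATA, 7.2e-05 for Motif 1). They were the calls among 36 pattern tests (8.33%). By the rule, no member window reached within 100 bp of a protein-coding start. The difference from core peaks can therefore not be told apart from distance to a start. The DRE was in 1.27%, Motif 1 in 1.1% and CGATA in 23.6% of 12091 unbound promoter windows. These were centred 500 bp upstream of the 5′-most start of genes with no peak summit within 1000 bp of any of their starts. Such genes may hold peaks further away. In the members' flanks, peak-free windows centred 1000 bp away, the shares were 0.453%, 0.725% and 23.2%. The low DRE and Motif 1 shares of members were thus near those of their flanks.

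The remaining 15 patterns did not pass the test against core peaks. Runs of 8 A came closest, in 15.9% of members and 10.1% of core peaks (Fisher's exact test, adjusted p = 0.0933). The TATA pattern, TATAAA, was in 36.1% of members, 30.1% of core peaks and 25% of unbound promoter windows. Distal peaks held TATAAA in 34%, all peaks in 34.7% and the members' flanks in 23.8%. The GAGA factor pattern, GAGAG, was in 29% of members, 28.1% of core peaks and 18.6% of unbound windows. All peaks held GAGAG in 24.5% and the members' flanks in 24.8%, so the contrast depended on the control. Patterns of the mammalian homologue RREB1 were rare: CCCCAAA was in 2.76% of members, 1.23% of core peaks and 3.46% of unbound windows, and CCACCC in 4.84%, 5.43% and 6.58%. Against distal peaks none of the 18 passed by Fisher's exact test, and the lowest adjusted p was 0.254, for GAGAG (29% of members, 24% of distal peaks); at an unadjusted level that pattern had p = 0.0423.

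The calls for the core elements depended on the window and on the list. With 50 bp either side, the adjusted p of Fisher's exact test against core peaks was 0.0734 for the DRE, 0.202 for CGATA and 0.622 for Motif 1. In replicate 1's own list, CGATA was in 21.1% of members and 30.3% of core peaks and Motif 1 in none and 2.16% (Fisher's exact test, adjusted p = 0.189 each), and the DRE alone passed.

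**Figure D3:**
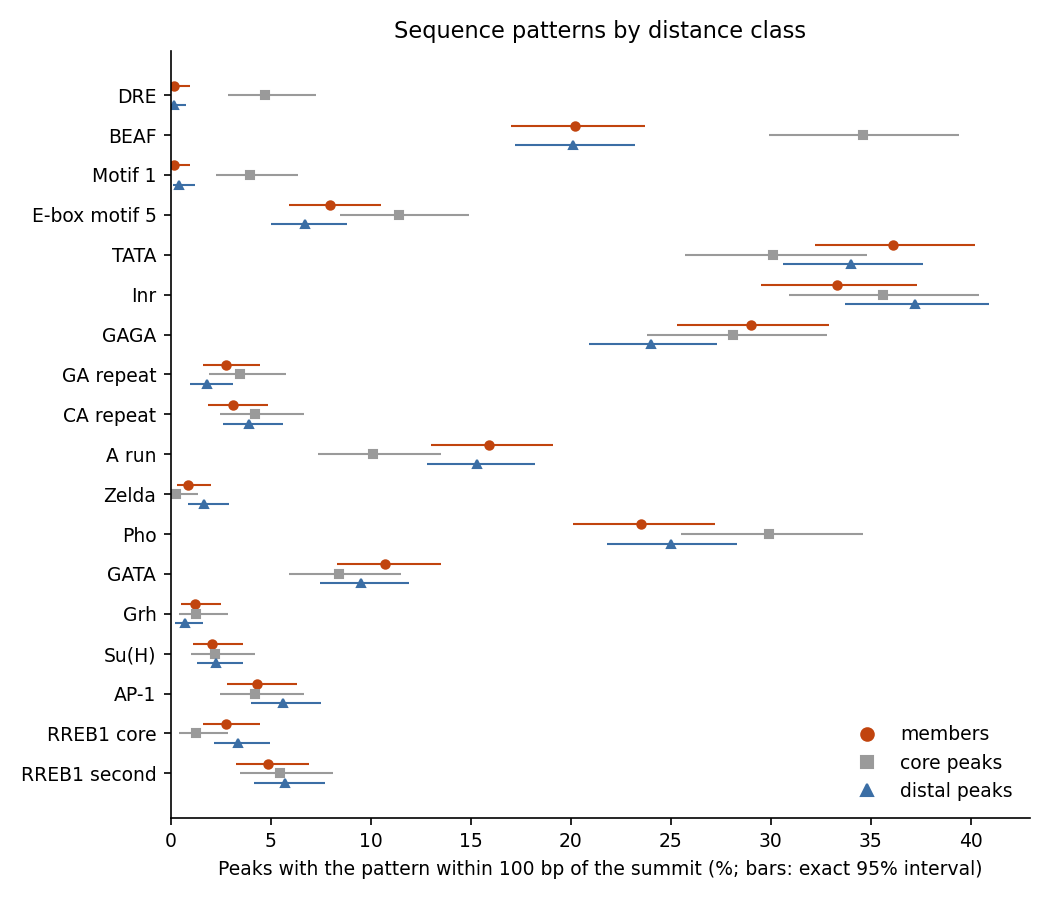
Share of peaks (%, x axis) with each of 18 sequence patterns within 100 bp of the summit, for members (orange circles), core peaks (grey squares) and distal peaks (blue triangles), with exact 95% intervals. Members lay beside distal peaks and below core peaks for the DRE, BEAF and Motif 1 rows.

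Member windows were rich in A and T. Their GC content was 35.9% ± 7.86 (SD, n = 579 windows), against 38.9% in core peaks, 36.4% in distal peaks, 41.3% in 1103 flanking windows free of peaks, centred 1000 bp away on each side, and 41.4% in the unbound promoter windows. Of 2080 6-mers, with reverse complements merged, 168 (8.08%) were more frequent in members than in those flanks and 171 (8.22%) less frequent (Fisher's exact test, adjusted over all 6-mers). The flanks came from the same loci as the members, but the test treated all windows as unpaired. Location in introns, exons or intergenic sequence was not matched. Of the 168, 118 held no more than a single G or C base. The lowest p was that of TAAATA, in 49.4% of members and 29.6% of flanks (Fisher's exact test, adjusted p = 4.63e-12). It was followed by ATTTAA (45.3% and 26.2%), TTAAAA (48.7% and 29.9%) and ATATTA (31.4% and 16.2%). Core and distal peaks held TAAATA in 43% and 39.9%, ATTTAA in 43% and 38.9%, TTAAAA in 44% and 46.7%, and ATATTA in 27.4% and 33.2%. When windows were compared within 5% steps of GC content, a setting chosen after seeing the data, 34 6-mers (1.63%) were more frequent by the Cochran-Mantel-Haenszel test, and ATTTAA and TTAAAA were no longer among them.

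The fifth 6-mer by p, ACAGTG, was not AT-rich. It was in 125 of 579 members (21.6%, 18.3 to 25.2%), against 100 of 1103 flanks (9.07%, 7.44 to 10.9%; Fisher's exact test, adjusted p = 1.37e-09) and 7.58% of unbound promoter windows. Within GC steps its odds ratio was 3.04, and it passed the threshold there too. Members of replicate 1's own list held it in 23.4%, against 8.91% of their flanks, and members of replicate 2's own list in 20.4%, against 8.26% of theirs. Core peaks held it in 22.5%, distal peaks in 25.7% and all peaks in 21.2%, so the share in members was near that of the whole list. It also did not follow signal, with 24.8, 17.9, 26.2 and 17.4% of members from the highest to the lowest of the 4 groups by signal.

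The position of ACAGTG relative to the summit was uneven. In the first 25 bp either side of the summit there were 0.725 sites per kb, against 0.474 in the flanks. The rate was 1 between 25 and 50 bp, 1.38 between 50 and 75 bp, 2.18 between 75 and 100 bp, 1.9 between 100 and 125 bp and 1.21 between 125 and 150 bp. Further out it was 0.76 and 0.898 per kb. Core and distal peaks were also highest between 75 and 100 bp, at 1.83 and 2.59 per kb. A longer form, CACAGTGG, looked for after the 6-mer had been seen, was in 41 members (7.08%), 1.09% of flanks and 0.645% of unbound windows. Core peaks held it in 6.67%, distal peaks in 6.14% and all peaks in 5.67%, so it was not particular to members. CACAGTGG is part of 2 of the printed sites, those at Rtnl1 and ph-d.

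**Figure D4:**
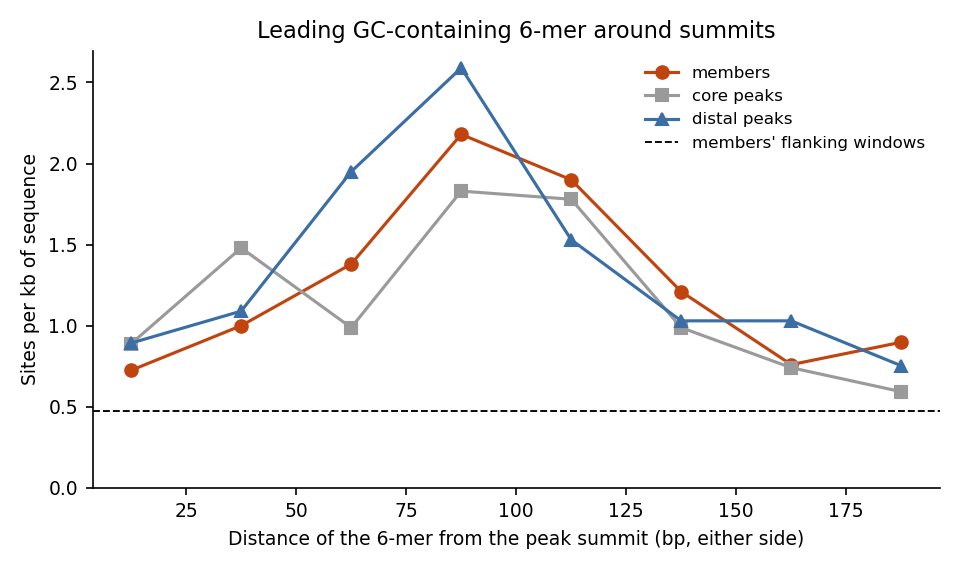
Sites of the 6-mer with the lowest p among those with any G or C, per kb of sequence (y axis), by distance from the peak summit in steps of 25 bp on both sides together (x axis), for members (orange), core peaks (grey) and distal peaks (blue). The dashed line is the rate in the members' flanking windows, 0.474 per kb, and the members' rate was highest, at 2.18 per kb, between 75 and 100 bp.

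Other 6-mers that passed within GC steps included CAGTGG, which overlaps ACAGTG, in 17.1% of members and 7.89% of flanks (odds ratio 3.61), and AGGGTA, marked in the ph-p window, in 9.5% and 2.72% (odds ratio 3.63). CTCTCA was in 11.7% and 5.53%, and GAGAGA, the longer GAGA factor pattern, in 15.2% and 9.16%. Core and distal peaks held CAGTGG in 15.1% and 18.7%, AGGGTA in 6.67% and 8.37%, CTCTCA in 9.14% and 7.95%, and GAGAGA in 14.8% and 13.1%; differences between classes were not tested for single 6-mers. A match is a run of letters and is not evidence of binding by a factor.

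Members lay at genes of several signalling and differentiation lists, while none lay at the listed genes of the ribosome and the proteasome. The 21 gene lists are described by counts of genes that were nearest to a member or to a core peak, beside the backgrounds of 3.6% and 2.77% of protein-coding genes. No list was tested, and long genes with many starts offer more sequence to the rule. None of 86 cytoplasmic ribosomal protein genes, 73 mitochondrial ribosomal protein genes or 48 proteasome subunit genes had a member. Core peaks were at 12 (14%) of the cytoplasmic ribosomal protein genes and at none of the mitochondrial ribosomal protein or proteasome genes. With divergent pairs included, 33 (38.4%), 13 (17.8%) and 2 (4.17%) genes of these lists had a peak within 200 bp of a start, against 7.88% of all genes. The 14 insulator and architecture genes had no member and 2 with a core peak, or 6 with divergent pairs included, and the 119 odorant and gustatory receptor genes had none of these.

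**Figure D5:**
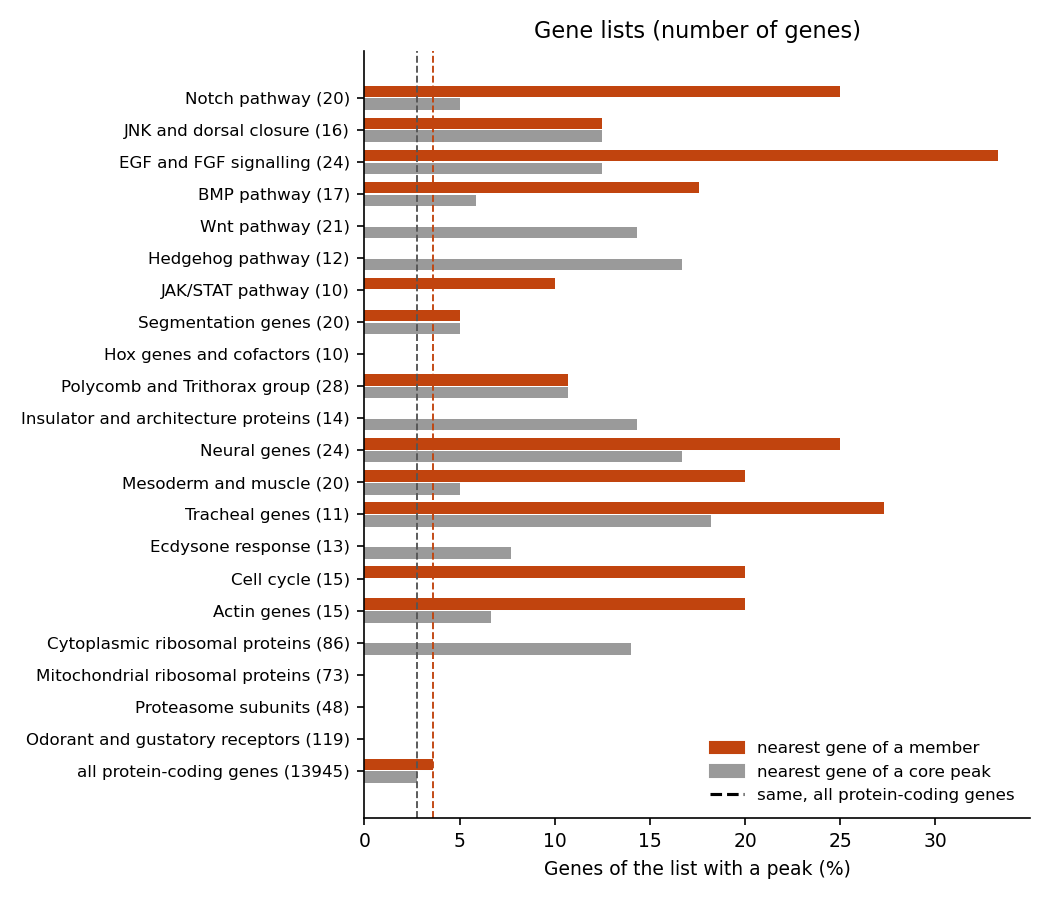
Share of the genes of each list (%, x axis) that were the nearest gene of a member (orange, upper bar) or of a core peak (grey, lower bar), with the number of genes in parentheses. Dashed lines mark the shares among all protein-coding genes, 3.6 and 2.77%; the cytoplasmic ribosomal proteins had a grey bar only, at 14%, and EGF and FGF signalling had the longest orange bar, at 33.3%.

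Of 24 genes of EGF and FGF signalling, 8 (33.3%) had a member and 3 a core peak. The strongest were at ed, an adhesion protein that antagonises the EGF receptor, with a signal of 147 (replicate 1, 70.5; replicate 2, 77.4), and at Mkp3, a phosphatase of the ERK kinase, with 118 and an overlap in replicate 2 only (57). The ETS repressor gene aop had 70.1, and its thresholded overlap was also in replicate 2 only (37.1). The other 5, named after their values were seen, were the genes of the secreted EGF receptor inhibitor aos (54.1), of sty, sprouty (44.9), of the kinase Raf (38.7), and of the FGF ligands pyr (14.6) and bnl (13.7). Of these 8 peaks, only that at ed overlapped a thresholded peak of both replicates. The overlap of aos was with replicate 1 only and that of bnl with replicate 2 only, while sty, Raf and pyr overlapped neither. The median over the 8 genes was 49.5, below the 78.8 of all members, so many were weak peaks.

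Of 20 Notch pathway genes, 5 (25%) had a member and 1 a core peak. The gene of the Notch antagonist numb had a signal of 242 in an intron 234 bp upstream of a start, with 102 in replicate 1 and 139 in replicate 2. The bHLH repressor genes of the Enhancer of split complex followed, E(spl)m3-HLH with 102 (replicate 1, 45.5; replicate 2, 54.6) and E(spl)m7-HLH with 86.3 (replicate 1, 55.2; replicate 2, 32.3). Both lay in intergenic sequence, 383 and 332 bp upstream. The other genes, fng and neur, each overlapped a thresholded peak of 1 replicate, with signals of 80.4 and 67.3.

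Of 24 neural genes, 6 (25%) had a member and 4 a core peak. The median signal over the 6 was 168, the highest of the 12 lists with a member, and it lay in a wide gap between numb and cpo. Besides brat and numb, elav, which encodes a neuronal RNA-binding protein, had 276 at 287 bp upstream (replicate 1, 141; replicate 2, 133). The weaker genes, named after their values were seen, were cpo, an RNA-binding protein gene (95), and scrt, a zinc finger gene (76.3), both with a thresholded overlap in replicate 2 only, and neur (67.3). The list shares numb and neur with the Notch list. Of 20 genes of mesoderm and muscle, 4 had a member and 1 a core peak. The members included the heart homeobox gene tin with 222 (replicate 1, 99.6; replicate 2, 122; 219 bp upstream), Msp300, a nesprin gene, with 134, and sls, a titin-like gene, with 114.

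BMP pathway genes had 3 members in 17 genes (17.6%) and 1 core peak. The members were at Mad, the SMAD gene, with 232 (replicate 1, 100; replicate 2, 140), at brk, a repressor of BMP targets, with 88.9, and at wit with 64.5. The overlap of brk and wit was with replicate 2 only. Wnt (21 genes), Hedgehog (12 genes) and ecdysone response genes (13 genes) had none, and 3, 2 and 1 of them had core peaks. Of 10 JAK/STAT genes, Stat92E, the STAT gene, had a signal of 107, and none had a core peak. None of 10 Hox genes and cofactors had a member or a core peak, and of 20 segmentation genes the pair-rule gene odd had 47.3, with no thresholded overlap in either replicate.

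Of 16 JNK and dorsal closure genes, a process in which pebbled is known to act, 2 had a member and 2 a core peak. Those with a member were jar, the myosin VI gene, with 128 (replicate 1, 50.8; replicate 2, 73), and aop. Of 11 tracheal genes 3 had a member, all with signals under the members' median: trh, which encodes the bHLH-PAS factor that sets tracheal fate, with 65.8, apt with 50, and bnl. Polycomb and Trithorax group genes had 3 in 28, ph-p, ph-d and lola with 73.6, and 3 had a core peak.

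Of 15 cell cycle genes, CycE, the cyclin E gene (53.3), fzr, an activator of the anaphase-promoting complex (49.5), and Cdk4 (47.8) had a member, and none had a core peak. The summit of fzr lay in the 3′ UTR of another gene. Of 15 actin genes, Act5C, a cytoplasmic actin gene, had 142 (replicate 1, 64; replicate 2, 77.4), Moe, the moesin gene, had 106, and capu, a formin gene, had 46.6, and 1 had a core peak. Only Act5C among these 6 genes overlapped a thresholded peak of both replicates.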

How the data were processed

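ChIP-seq peak lists on dm6, per the labels, were used as the authors deposited them. The authors called peaks per replicate and on both replicates together and thresholded them by the irreproducible discovery rate, per the file headers. The aligner and peak caller are not given in the sources used here. The deposited signal of a peak was used to rank peaks within its list only, and the deposited score, a scaled rate of at least 830, served as a filter.

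Summits were placed on Release 6 of the genome and all protein-coding starts of Ensembl release 115 (BDGP6.54, the same assembly). Overlap meant 1 bp or more. Flanking windows were centred 1000 bp either side, without peaks. Class shares (5 tests), patterns (36 tests) and 6-mers (2080) were compared by two-sided Fisher's exact tests with Benjamini-Hochberg adjustment at 0.05. Intervals are exact (Clopper-Pearson, 95%). The tools were Python 3.11.15 with scipy 1.17.1, pandas 2.3.3, numpy 2.4.6 and, for figures, matplotlib 3.10.9. The placing of summits and the Fisher test of 6-mers, with a planted 6-mer, were checked on simulated data. Those random sequences had equal base shares, unlike the windows compared here, and the other tests were not simulated. GC-stratified counts used the Cochran-Mantel-Haenszel test. Sequences are from RefSeq's copy of that assembly.

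The members, patterns and gene lists were chosen with earlier results of these data known. Genes were named by rule: the 20 strongest members in both replicates, the 5 strongest downstream, up to 3 per gene list, 3 on each side of each distance limit, and the 5 6-mers with the lowest p. Of the members this rule names, 2 are not reported here. Of the listed symbols, 6 were matched through synonyms and 6 were not analysed here. Alternatives were the conservative list, each replicate's own list, a score of 1000, other starts, limits, overlaps, windows and controls.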

Additional observations from a re-analysis of the deposited data

How the results depend on the processing

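No paired analysis was possible because there is 1 group. Most alternatives kept the results on their side of the threshold. The exceptions follow, and their cause was not tested. With an outer limit of 500 bp, members numbered 303, the upstream share reversed against core peaks (87.8%), and the shares in both replicates (51.2%) and above the median (58.1%) came to differ from core peaks. With 5′-most starts, the share in both replicates (45.6%) and above the median (54.4%) no longer differed from distal peaks, nor did the share above the median with a score of 1000 (54.2%). The share of members whose gene also had a peak within 200 bp of a start was 7.01% with 5′-most starts, 9.24% with a score of 1000 and 9.27% with overlapping peaks counted once. The count of 6-mers more frequent in members was 85 with 5′-most starts, 64 within 500 bp, 103 with windows of 50 bp and 102 with 200 bp either side, 267 against unbound promoters and 34 within GC steps. The count of patterns that differed from core peaks was 0 with windows of 50 bp by Fisher's exact test.

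In each replicate's own list, that is without the other replicate, members numbered 304 to 452, the upstream share was 72.4 to 73.2%, the share above the median 51.6 to 52.9% (without replicate 2 below the 51.9% of core peaks), the share with a peak within 200 bp of a start of the same gene 5.97 to 6.91%, patterns 1 to 3 and 6-mers 81 to 184. Of 82 further values for single patterns and 6-mers, 75 kept their side and 7 did not pass. Depth is unknown, so what deeper libraries would add cannot be given.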
